A study of Oryza sativa Indica Group with 8 samples.

Results

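The transcripts described here are those of rice ammonium transporters of the AMT1 and AMT2 subfamilies and of the glutamine synthetases. The list named 10 genes, 6 transporters (AMT1-1, AMT1-2, AMT1-3, AMT2-1, AMT2-2 and AMT2-3) and 4 synthetases (GLN1-1, GLN1-2, GLN1-3 and GLN2). A probe set, the group of short probes that reports a transcript on the array, was taken as a member where the array's annotation gave it to 1 of these genes alone. This found 9 of the 10 genes, through 11 of the 57258 probe sets tested, out of 17905 genes with a probe set of their own. AMT1-3 (LOC4330007), the direct neighbour of AMT1-2 in the RefSeq gene order of the Japonica assembly ASM3414082v1, had no probe set in the annotation and was not analysed here. AMT1-1 (LOC4336365) and GLN2 (LOC4337272) had 2 probe sets each, and the one with the highest mean signal stands for the gene.

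Ammonium is a main form of nitrogen for rice in flooded soil, and ammonium transporters carry it across the plasma membrane of root cells. Inside the cell glutamine synthetase joins ammonium to glutamate, and glutamate synthase then passes the amide nitrogen on, so that these enzymes form the entry of inorganic nitrogen into amino acids. GLN1 genes encode the synthetases of the cytosol and GLN2 that of the plastid. In rice, AMT1 transporters have a high affinity for ammonium, and GLN1-2 is known as the main cytosolic enzyme for ammonium taken up by roots.

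RNA came from roots of 2 indica rice cultivars: IR20, a semi-dwarf, high-yielding type that the labels call shallow rooted and drought susceptible, and Nootripathu, a low-yielding landrace called deep rooted and drought tolerant. Plants stood singly in pipes of 1 m length in a greenhouse, were watered throughout (control) or had water withheld from 40 days after sowing until leaves rolled and dried (stress). Each of the 4 groups held 2 biological replicates on 1 array each, and whether a replicate pooled several plants is not stated. Soil was washed off control roots with de-ionised water and tapped off stressed roots, so handling and water supply cannot be told apart.

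Signals are robust multi-array average (RMA) values on a log2 scale, on which a step of 1 is a 2-fold difference in signal. Differences are given with the standard error (SE) of limma's fit over all 8 arrays, and a gene passed at an adjusted p under 0.05. The lowest signal of an array lay between 2.53 and 2.64, its first quartile between 3.95 and 4.08, and its highest between 14.92 and 15.28. Stressed IR20 replicate 2 departed from the rest in its controls. There 3′ probe sets of the poly-A spike-in transcripts, bacterial RNAs added to each sample, exceeded the 5′ ones by 5.32. On the other 7 arrays the excess was 2.08 to 2.58. Transcripts of rice itself departed as well on this array. The 3′ excess was 6.64 for actin, against 4.48 to 5.24 on the other 7, and 3.83 for GAPDH, against 1.77 to 2.24. The spike-in signal was also higher on stressed arrays, so that scaling to it shifts every drought difference by −0.61 in IR20 and −0.89 in Nootripathu. All 5 measured root genes of a marker list fell in both cultivars, and LSI1, a silicon channel gene of roots, read 13.44 to 14.55 over the 8 arrays. Genes of dividing cells fell in 12 of 12 cases in IR20 (median −3.54), while 5 rose, 3 fell and 4 did not pass in Nootripathu (median 0.40). Beside both lists, 32.3% of all genes passed as lower in IR20 with 1 probe set per gene. In Nootripathu 23.2% passed as lower and 31.1% as higher. The summed linear signal of the dividing-cell genes ran from 4556 to 4637 in IR20 control, 602.5 to 861.9 in IR20 stress, 1614 to 1633 in Nootripathu control and 2027 to 2173 in Nootripathu stress. The part of such shifts in the results was not tested. In whole roots, fewer cells of a type and less RNA per cell cannot be told apart.

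Under drought, most ammonium transporter and glutamine synthetase genes fell in both cultivars and GLN1-3 rose in both. In IR20, 8 of the 9 genes passed, 6 lower and 2 higher, with a median difference of −2.14. Of all 57258 probe sets 38.1% passed in IR20, 17.1% as lower and 21.0% as higher, and with 1 probe set per gene the shares were 61.3%, 32.3% and 28.9%. In Nootripathu 8 of 9 passed as well, again 6 lower and 2 higher, with a median of −1.18. There 31.9% of all probe sets passed, 14.4% as lower and 17.5% as higher, or 54.4%, 23.2% and 31.1% with 1 probe set per gene. The medians of all probe sets were 0.10 in IR20 and −0.001 in Nootripathu, and with 1 probe set per gene 0.0 and 0.075.

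**Figure D1:**
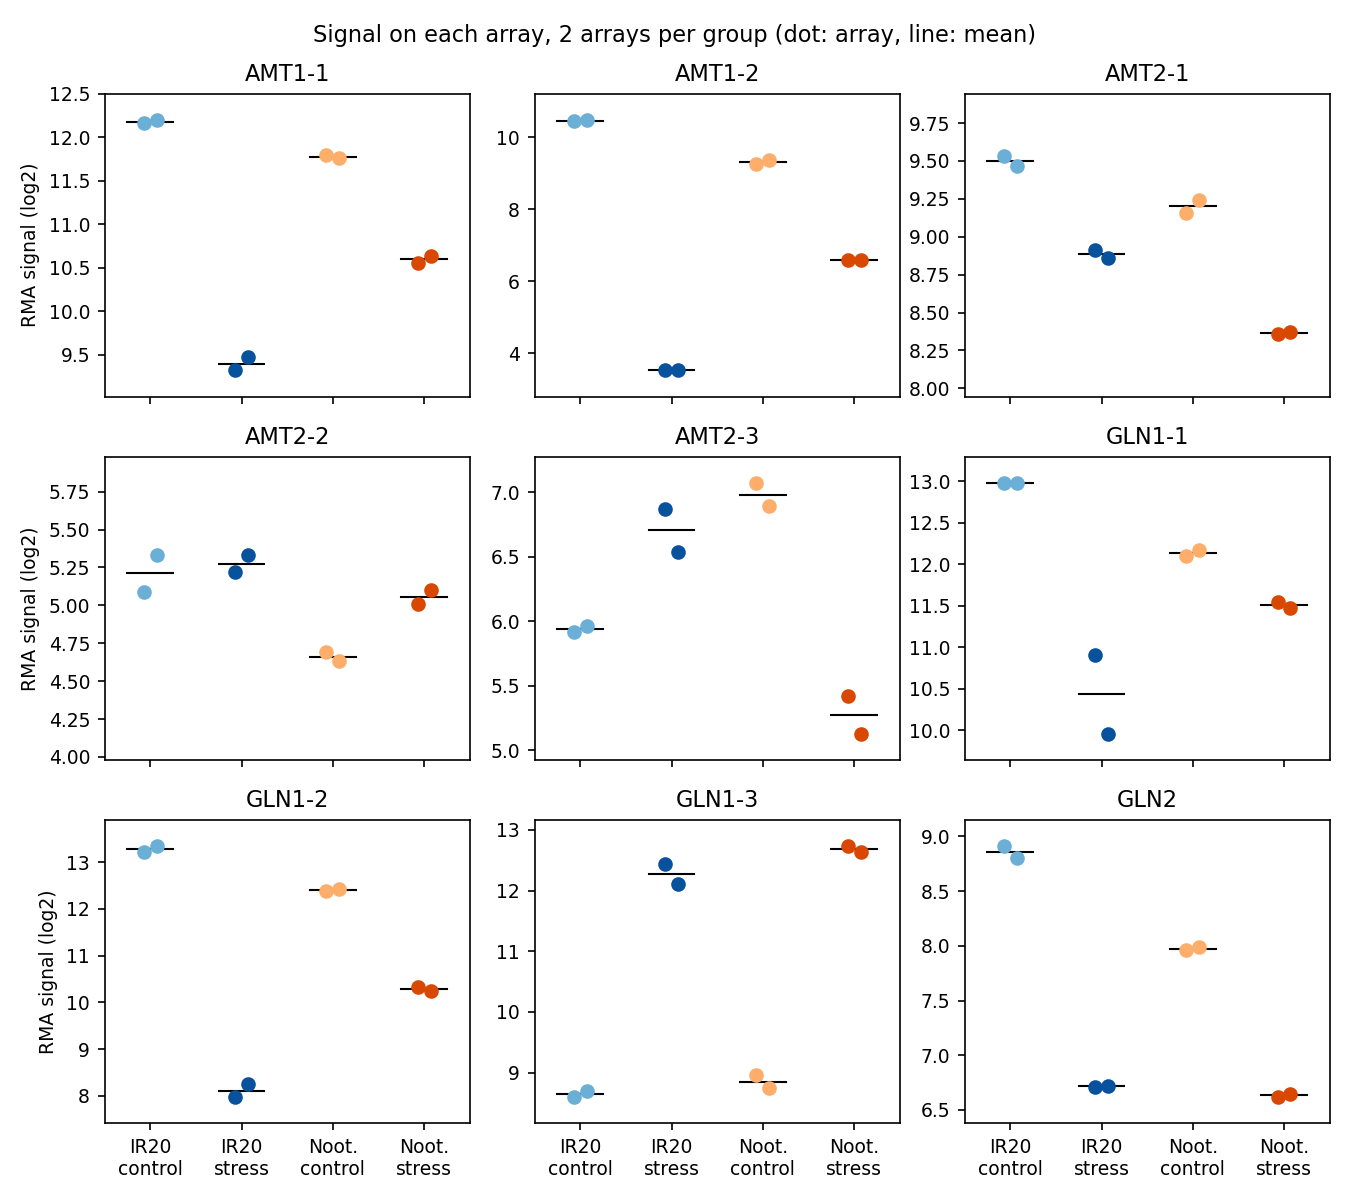
Log2 RMA signal of the 9 measured genes on each of the 8 arrays, in 4 groups (Noot. is Nootripathu). Each dot is 1 array, each line the mean of a group's 2 arrays, and each panel has its own scale. AMT1-2 runs from 10.49 in watered to 3.52 in droughted IR20, GLN1-3 lies above 12 on all 4 stressed arrays, and AMT2-3 moves in opposite directions in the cultivars.

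AMT1-2 (LOC4330008), whose transcript is known to be largely root-specific in rice, showed the largest difference of the 9 genes. Its signal was 10.45 and 10.49 in IR20 control roots and 3.53 and 3.52 in stressed ones. In Nootripathu it was 9.26 and 9.36 with water and 6.60 on both arrays without. The 4 groups did not overlap, and replicates lay close together. The drought difference was −6.95 in IR20 (SE 0.09, adjusted p = 8.59e-08 by limma), which left 0.81% of the control signal. In Nootripathu it was −2.71 (SE 0.09, adjusted p = 8.53e-07), which left 15.3%. Only 23 of 57258 probe sets had an IR20 difference as low or lower, against 637 in Nootripathu. The stressed IR20 signal was below the first quartile of both arrays (4.08 each), so background limits the size of this fall. Without stressed IR20 replicate 2 the difference was again −6.95.

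AMT1-1, the transporter of the same subfamily that rice expresses in roots and shoots, fell less. It gave 12.16 and 12.20 in IR20 control roots, 9.32 and 9.47 in stressed IR20, 11.79 and 11.76 in Nootripathu control and 10.56 and 10.64 in stressed Nootripathu. No group overlapped another. The differences were −2.79 (SE 0.10, adjusted p = 4.91e-07) in IR20 and −1.18 (SE 0.10, adjusted p = 5.42e-05) in Nootripathu. The second probe set of AMT1-1 gave low signals of 4.82 to 5.95 and did not follow: it stood at 0.64 (SE 0.17, adjusted p = 0.0206) in IR20 and −0.27 (adjusted p = 0.300) in Nootripathu. On each array, the AMT1-1 signal moved up relative to that of AMT1-2 under drought, by 4.16 in IR20 and 1.53 in Nootripathu. Adding 1 amount to all values of an array cannot alter this comparison, but scaling that depends on signal level can. Background at stressed AMT1-2 limits the IR20 value.

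The AMT2 genes, which encode transporters of a separate branch of the family, moved less and not in 1 direction. AMT2-1 (LOC4339064) gave 9.53 and 9.47 in IR20 control, 8.91 and 8.86 in IR20 stress, 9.16 and 9.24 in Nootripathu control and 8.36 and 8.37 in Nootripathu stress. It fell in both, with differences of −0.61 (SE 0.09, adjusted p = 0.00114) in IR20 and −0.84 (SE 0.09, adjusted p = 0.000251) in Nootripathu. For this gene stressed Nootripathu, not stressed IR20, was the lowest group.

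AMT2-3 (LOC4327433) rose in IR20 and fell in Nootripathu. Its arrays read 5.92 and 5.96 in IR20 control, 6.87 and 6.54 in IR20 stress, 7.07 and 6.89 in Nootripathu control and 5.42 and 5.13 in Nootripathu stress. Watered Nootripathu was thus the highest group and droughted Nootripathu the lowest. The differences were 0.76 (SE 0.15, adjusted p = 0.00454) and −1.71 (SE 0.15, adjusted p = 6.45e-05). It was the 1 gene of the 9 that passed in opposite directions, as did 2.13% of all probe sets and 4.25% with 1 probe set per gene. Under spike-in scaling the IR20 value was 0.15 and did not pass (adjusted p = 0.695), while the fall in Nootripathu, then −2.60, passed.

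AMT2-2 (LOC4327434), separated from AMT2-3 by 2 genes in the same RefSeq order, changed little. Its signal was 5.09 and 5.33 in IR20 control, 5.22 and 5.33 in IR20 stress, 4.69 and 4.63 in Nootripathu control and 5.01 and 5.10 in Nootripathu stress. The IR20 groups overlapped and the difference was 0.06 (95% interval −0.20 to 0.33). In Nootripathu it rose by 0.39 (SE 0.12, adjusted p = 0.0330), a call that was lost when any 1 Nootripathu array was left out (adjusted p = 0.0843 to 0.161) and that turned to −0.50 (adjusted p = 0.131) under spike-in scaling.

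GLN1-2 (LOC4332108) fell next furthest after AMT1-2 in IR20. It read 13.22 and 13.34 in IR20 control, 7.98 and 8.25 in IR20 stress, 12.39 and 12.42 in Nootripathu control and 10.33 and 10.24 in Nootripathu stress. The 4 groups did not overlap. The difference was −5.17 (SE 0.12, adjusted p = 1.13e-07) in IR20, which left 2.78% of the control signal, and −2.12 (SE 0.12, adjusted p = 6.15e-06) in Nootripathu, which left 23.0%. All of these signals were well inside the range of the arrays.

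GLN1-1 (LOC4330649), the cytosolic synthetase known in rice for its part in growth and grain filling, fell in IR20. Its control roots gave 12.98 on both arrays, but the stressed replicates read 10.91 and 9.96, the widest gap between replicates among the 9 genes. Nootripathu gave 12.10 and 12.17 with water and 11.55 and 11.48 without. The IR20 difference was −2.55 (SE 0.26, adjusted p = 0.000102), or −2.08 without stressed IR20 replicate 2 and −3.02 without replicate 1. In Nootripathu the difference was −0.62 (SE 0.26, adjusted p = 0.110) and did not pass, although the groups did not overlap. The SE is shared by all groups: without either stressed IR20 array the same −0.62 passed (adjusted p = 0.00120).

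GLN1-3 (LOC4333896), known in rice as the cytosolic form of the spikelet, went the other way. It gave 8.60 and 8.69 in IR20 control, 12.43 and 12.11 in IR20 stress, 8.96 and 8.74 in Nootripathu control and 12.73 and 12.64 in Nootripathu stress. All 4 stressed arrays lay above all 4 control arrays. The rise was 3.62 (SE 0.14, adjusted p = 6.14e-07) in IR20, a 12.3-fold higher signal, and 3.84 (SE 0.14, adjusted p = 9.52e-07) in Nootripathu, 14.3-fold. Among the 57258 probe sets, 148 had a rise at least as large in IR20 and 130 in Nootripathu. Scaled to the spike-ins the rises were 3.02 and 2.95 and passed.

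Because these genes moved apart, the balance of cytosolic synthetase signals shifted within each array. The log2 signal of GLN1-3 minus that of GLN1-2 was 8.79 higher in stressed than in control IR20 roots, a 443-fold change of their ratio, and 5.96 higher in Nootripathu, 62.2-fold. Against GLN1-1 the shift was 6.17 in IR20 and 4.46 in Nootripathu. Adding 1 amount to all values of an array does not change these shifts, but scaling that depends on signal level can. They show unequal change, not which enzyme was more abundant, since levels of different probe sets cannot be compared.

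GLN2, the plastid synthetase, fell in both cultivars to nearly the same signal. The arrays read 8.91 and 8.80 in IR20 control, 6.71 and 6.72 in IR20 stress, 7.96 and 7.99 in Nootripathu control and 6.62 and 6.65 in Nootripathu stress. The differences were −2.14 (SE 0.09, adjusted p = 1.22e-06) and −1.34 (SE 0.09, adjusted p = 1.93e-05). The second GLN2 probe set lay near the lowest array signals, at 2.86 to 3.08 on 6 arrays and 3.74 and 4.52 in stressed Nootripathu. It differed by 0.10 (adjusted p = 0.761) in IR20 and by 1.22 (SE 0.22, adjusted p = 0.00314) in Nootripathu, so the 2 probe sets disagreed there in direction. Photosynthetic genes, which share the plastid with GLN2, did not move with it as a list: of 4 measured, 1 rose and 3 did not pass in IR20, and 1 fell and 3 did not pass in Nootripathu. Their summed linear signal ran from 466.3 to 489.0 in IR20 control, 412.6 to 512.6 in IR20 stress, 339.6 to 376.2 in Nootripathu control and 287.4 to 299.5 in Nootripathu stress.

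**Figure D2:**
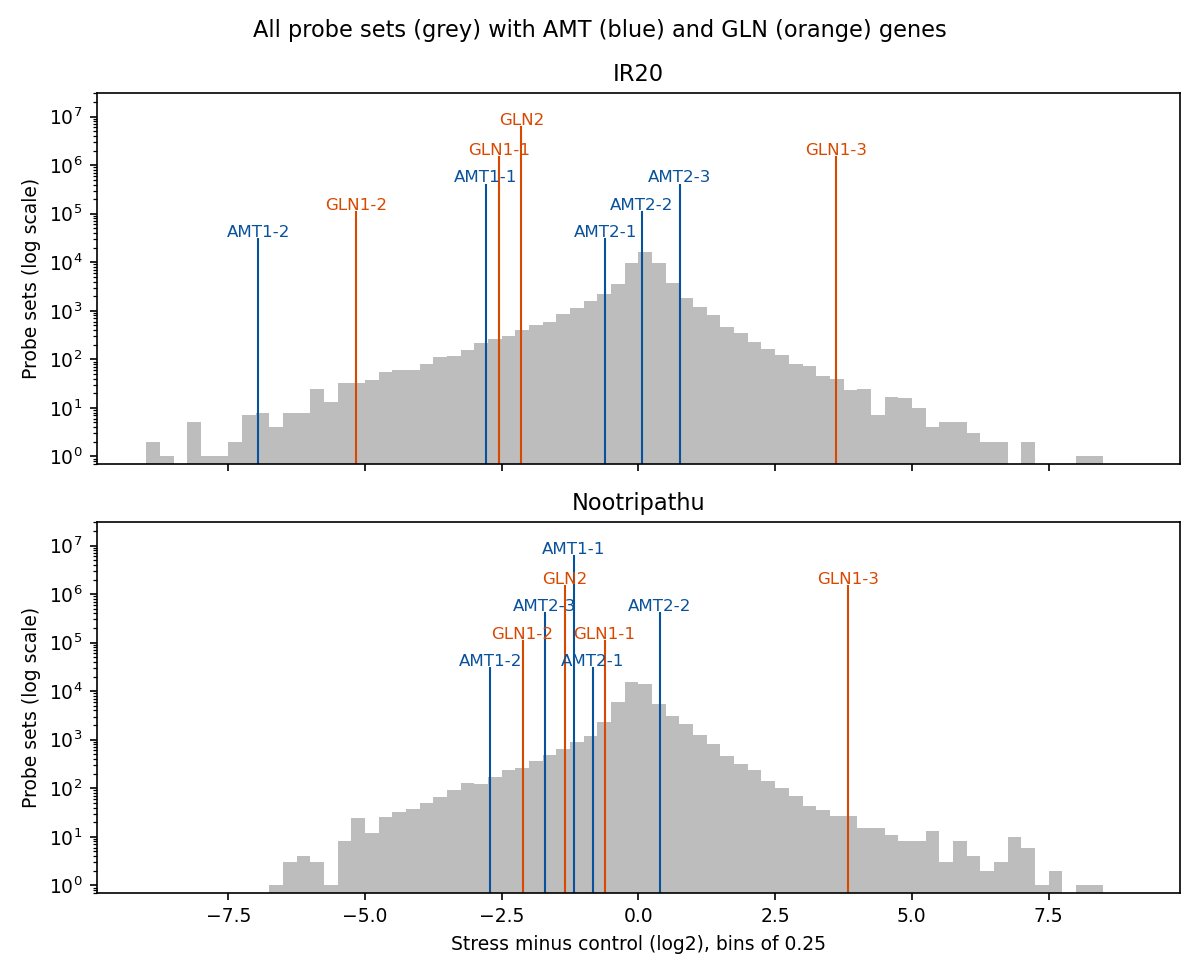
Number of probe sets (log scale) by drought difference, stress minus control on the log2 scale in bins of 0.25, for IR20 above and Nootripathu below. Lines mark the AMT genes in blue and the GLN genes in orange; their height only separates the names. AMT1-2 at −6.95 and GLN1-2 at −5.17 lie in the far lower tail in IR20, and at −2.71 and −2.12 in Nootripathu, while GLN1-3 lies in the upper tail of both.

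Both cultivars passed in the same direction for 6 of the 9 genes (AMT1-1, AMT1-2, AMT2-1, GLN1-2, GLN1-3 and GLN2), as did 20.0% of all probe sets and 37.6% with 1 probe set per gene. The size of the drought response differed between the cultivars for 6 of the 9 genes by the interaction test, 5 with a higher and 1 with a lower value in Nootripathu. Of all probe sets 19.6% passed that test, 10.6% as higher and 8.99% as lower (32.9%, 21.2% and 11.8% with 1 probe set per gene). AMT1-2 fell 4.24 less in Nootripathu (SE 0.13, adjusted p = 5.95e-06), a value whose size background limits through stressed IR20. GLN1-2 fell 3.05 less (SE 0.17, adjusted p = 3.49e-05) and AMT1-1 1.61 less (SE 0.14, adjusted p = 0.000225). The second AMT1-1 probe set passed in the opposite direction (−0.91, adjusted p = 0.0367). GLN1-1 differed by 1.93 (SE 0.36, adjusted p = 0.00856), or by 1.45 without stressed IR20 replicate 2 and 2.4 without replicate 1. GLN2 differed by 0.80 (SE 0.13, adjusted p = 0.00498). Its second probe set differed by 1.12 (adjusted p = 0.0397), with a rise in Nootripathu and not a smaller fall. AMT2-3 went the other way, at −2.46 (SE 0.21, adjusted p = 0.000205). For GLN1-3 the drought responses differed by 0.22, with a 95% interval of −0.23 to 0.67, for AMT2-1 by −0.22 (−0.53 to 0.09) and for AMT2-2 by 0.33 (−0.05 to 0.70). Under spike-in scaling AMT1-1 (1.33, adjusted p = 0.0520) and GLN2 (0.52, adjusted p = 0.559) did not pass.

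In watered roots Nootripathu had less signal than IR20 for 5 genes and more for 1, and 3 did not pass; of all probe sets 19.3% passed, 10.9% as lower and 8.37% as higher (35.4%, 22.8% and 12.6% with 1 probe set per gene). The difference was −1.16 for AMT1-2 (SE 0.09, adjusted p = 8.68e-05), −0.88 for GLN1-2 (SE 0.12, adjusted p = 0.00144), −0.88 for GLN2 (SE 0.09, adjusted p = 0.000388), −0.55 for AMT2-2 (adjusted p = 0.0116) and −0.40 for AMT1-1 (adjusted p = 0.0255). The second probe sets of GLN2 (−0.04, adjusted p = 0.930) and AMT1-1 (0.08, adjusted p = 0.827) did not pass. AMT2-3 was higher, by 1.03 (SE 0.15, adjusted p = 0.00191). GLN1-1 stood at −0.84 (adjusted p = 0.0560), AMT2-1 at −0.30 (adjusted p = 0.0659) and GLN1-3 at 0.20 (95% interval −0.12 to 0.52). GLN1-1 passed when only the watered arrays were fitted (adjusted p = 0.00175), under 4 other settings (0.00574 to 0.0497) and without either stressed IR20 array (0.000577). AMT2-1 passed without the dimmest probe sets (adjusted p = 0.0338), with array weights (0.0296) and without either stressed IR20 array (0.0408). Under spike-in scaling only AMT1-2 (−0.96) and AMT2-3 (1.24) of the 9 passed, and the AMT1-1 call was lost when any 1 of the 4 control arrays was left out (adjusted p = 0.0882 to 0.146). AMT2-2 did not pass without IR20 control replicate 2 or either Nootripathu control array (adjusted p = 0.0605 to 0.0868).

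In droughted roots the order turned for part of the genes, with 4 higher in Nootripathu, 2 lower and 3 that did not pass; of all probe sets 22.0% passed, 10.7% as higher and 11.3% as lower (34.8%, 18.1% and 16.7% with 1 probe set per gene). AMT1-2 was 3.08 higher (SE 0.09, adjusted p = 6.28e-07), against a stressed IR20 signal in the background range that limits this value, GLN1-2 2.17 higher (SE 0.12, adjusted p = 1.22e-05) and AMT1-1 1.21 higher (SE 0.10, adjusted p = 0.000108). The second AMT1-1 probe set passed as lower (−0.84, adjusted p = 0.0116). GLN1-1 was 1.08 higher (SE 0.26, adjusted p = 0.0198), but 0.61 without stressed IR20 replicate 2, and did not pass without either stressed Nootripathu array (adjusted p = 0.0787 and 0.0960), with only the stressed arrays fitted (0.0742) or under a trended robust prior (0.0893). AMT2-3 (−1.43, SE 0.15, adjusted p = 0.000389) and AMT2-1 (−0.52, SE 0.09, adjusted p = 0.00615) were lower in Nootripathu, AMT2-1 without passing under spike-in scaling (−0.60, adjusted p = 0.354). GLN1-3 differed by 0.42 (95% interval 0.10 to 0.74, adjusted p = 0.0669; 0.0191 without stressed IR20 replicate 1), AMT2-2 by −0.22 (−0.49 to 0.04) and GLN2 by −0.08 (−0.30 to 0.14). The second GLN2 probe set passed as higher (1.08, adjusted p = 0.0102).

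AMT1-1, AMT1-2, GLN1-1 and GLN1-2 shared 1 order of the groups, with no overlap between arrays: IR20 control highest, then Nootripathu control, Nootripathu stress and IR20 stress. This order was looked for after the values had been seen; it held for 4 of the 9 genes, for 2.11% of all probe sets and for 4.61% with 1 probe set per gene. AMT1-1, AMT1-2 and GLN1-2 passed as lower in watered and as higher in droughted Nootripathu, as did 1.94% of all probe sets and 4.27% with 1 probe set per gene. The watered call of AMT1-1 was lost without any 1 control array, and those of AMT1-1 (−0.2) and GLN1-2 (−0.67) under spike-in scaling. The second AMT1-1 probe set did not follow, at 0.08 in watered and −0.84 in droughted roots.

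Likeness of pattern was measured as the root mean square difference of 8 array values, each set against its gene's own mean, over 2447 named genes; the genes share the same arrays, so this only describes them. The genes nearest to AMT1-2 were Lsi2 (0.42), a silicon efflux transporter, OsPHT3 (0.61), NRAMP5 (0.61), a manganese transporter, OsZIP1 (0.67), of the zinc and iron transporter family, and GLN1-2 itself (0.69). Nearest to GLN1-2 were OsZIP1 (0.31), CIN2 (0.36), a cell wall invertase, DUR3 (0.46), a urea transporter, COPT2 (0.51), a copper transporter, and OsTUB6 (0.52), a beta-tubulin. Without stressed Nootripathu replicate 1, 3 of the 5 were shared for each. DUR3, for example, averaged 8.62 in IR20 control, 3.28 in IR20 stress, 6.62 in Nootripathu control and 4.96 in Nootripathu stress.

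**Figure D3:**
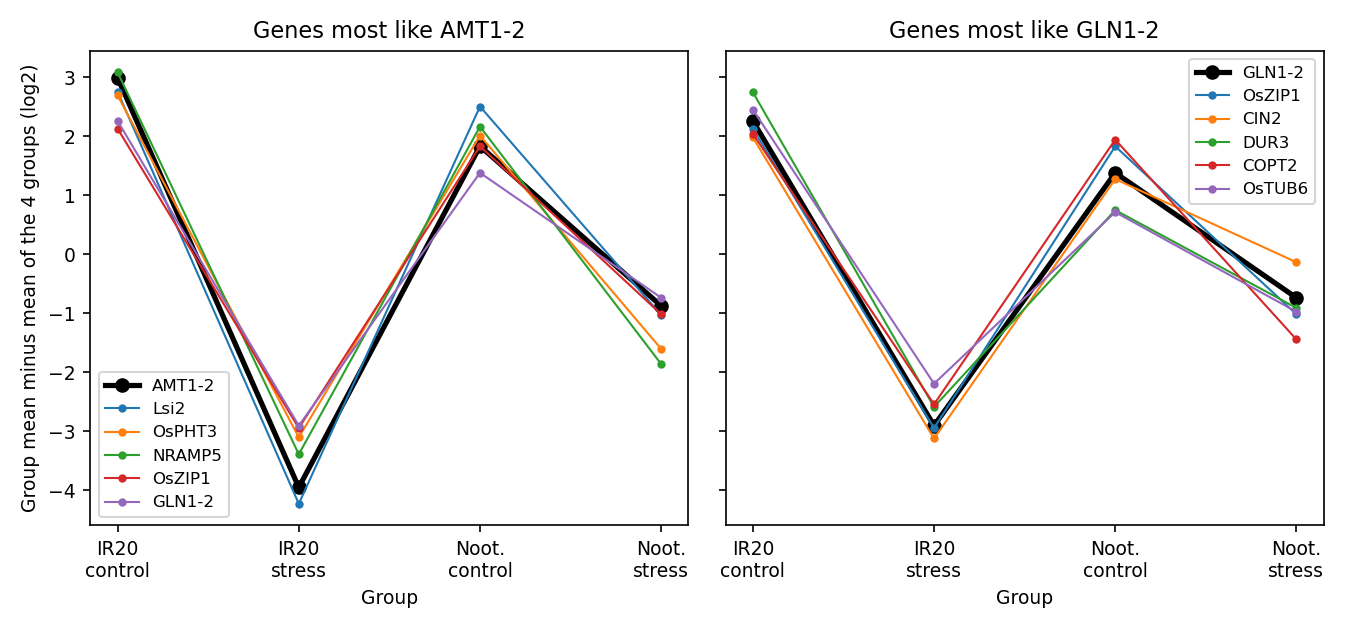
Group means of AMT1-2 (left) and GLN1-2 (right), in black, with the 5 named genes of the most similar pattern, each drawn as log2 signal minus the mean of its 4 groups, with no error bars. All 12 lines are highest in IR20 control and lowest in stressed IR20.

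Of the AMT3 transporters, the remaining members of the family with a probe set, 3 were measured. In IR20 AMT3-2 (−2.88, SE 0.25, adjusted p = 4.70e-05) and AMT3-3 (−1.10, SE 0.16, adjusted p = 0.000924) fell and AMT3-1 rose (1.01, SE 0.18, adjusted p = 0.00278). In Nootripathu AMT3-2 fell (−1.87, SE 0.25, adjusted p = 0.000670) and AMT3-1 rose (1.03, SE 0.18, adjusted p = 0.00303), while AMT3-3 stood at −0.12 (adjusted p = 0.642). AMT3-3 read 4.87 and 5.19 in IR20 control and 4.01 and 3.84 in IR20 stress. The stressed signals were below the first quartile of their arrays (4.08 each), so background limits the size of its IR20 fall. The AMT3-2 and AMT3-1 probe sets may match several transcripts. A second AMT3-1 probe set, which is not of that kind, gave 1.09 (adjusted p = 6.40e-05) in IR20 and 0.14 (adjusted p = 0.353) in Nootripathu, and the AMT3-1 rises did not pass under spike-in scaling (0.41 and 0.13). AMT3-2 had the same order of groups as AMT1-2, with 10.33 and 10.38 in IR20 control, 7.02 and 7.94 in IR20 stress, 10.03 and 9.98 in Nootripathu control and 8.03 and 8.23 in Nootripathu stress.

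Of 9 measured genes for nitrate uptake and further assimilation, 6 fell and 2 rose in IR20 (median −1.48), and 5 fell and 1 rose in Nootripathu (median −0.41). Thus 8 and 6 of the 9 passed, beside 61.3% of all genes in IR20 and 54.4% in Nootripathu with 1 probe set per gene. As lower passed 32.3% of all genes in IR20 and 23.2% in Nootripathu. The 3 largest falls in IR20 were those of the nitrate transporters NRT2.3 (−6.38, SE 0.15, adjusted p = 1.17e-07) and NRT2.2 (−5.18, SE 0.13, adjusted p = 1.47e-07) and of the nitrate reductase NIA1 (−3.17, SE 0.10, adjusted p = 2.49e-07). The NRT2.3 and NRT2.2 probe sets may match several transcripts; with all such probe sets left out, these falls drop out and 6 nitrate and assimilation genes passed in IR20. In Nootripathu the largest falls were those of the glutamate dehydrogenases GDH1 (−2.44, SE 0.10, adjusted p = 1.64e-06) and GDH2 (−1.84, SE 0.10, adjusted p = 5.78e-06), enzymes that can release ammonium from glutamate, and of NRT2.2 (−1.70, SE 0.13, adjusted p = 3.13e-05). NRT2.3 differed by −0.23 (adjusted p = 0.307) there. The second NIA1 probe set did not follow the fall of the first. It stood at 0.2 (adjusted p = 0.215) in IR20 and −0.03 (adjusted p = 0.904) in Nootripathu. Nor did it pass the interaction test (−0.23, adjusted p = 0.375), and the cause was not tested. The rises were GDH3 (0.95, SE 0.11, adjusted p = 0.000173) and GDH2 (0.48, SE 0.10, adjusted p = 0.00664) in IR20 and NAR2.2 (3.86, SE 0.18, adjusted p = 2.42e-06) in Nootripathu. GDH3 read 3.74 and 3.55 in IR20 control, below the first quartile of both arrays, so background limits the size of its rise. NAR2.1 had no probe set in the annotation and was not measured. Under spike-in scaling GDH3 (0.34, adjusted p = 0.365) and GDH2 (−0.13) did not pass in IR20, and GDH2's 2 other probe sets stood at −0.64 (adjusted p = 0.271) and −0.72 (adjusted p = 0.0468) there. The interaction test passed for 8 of these 9 genes, 6 with a higher and 2 with a lower value in Nootripathu, beside 19.6% of all probe sets and 32.9% with 1 probe set per gene.

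**Figure D4:**
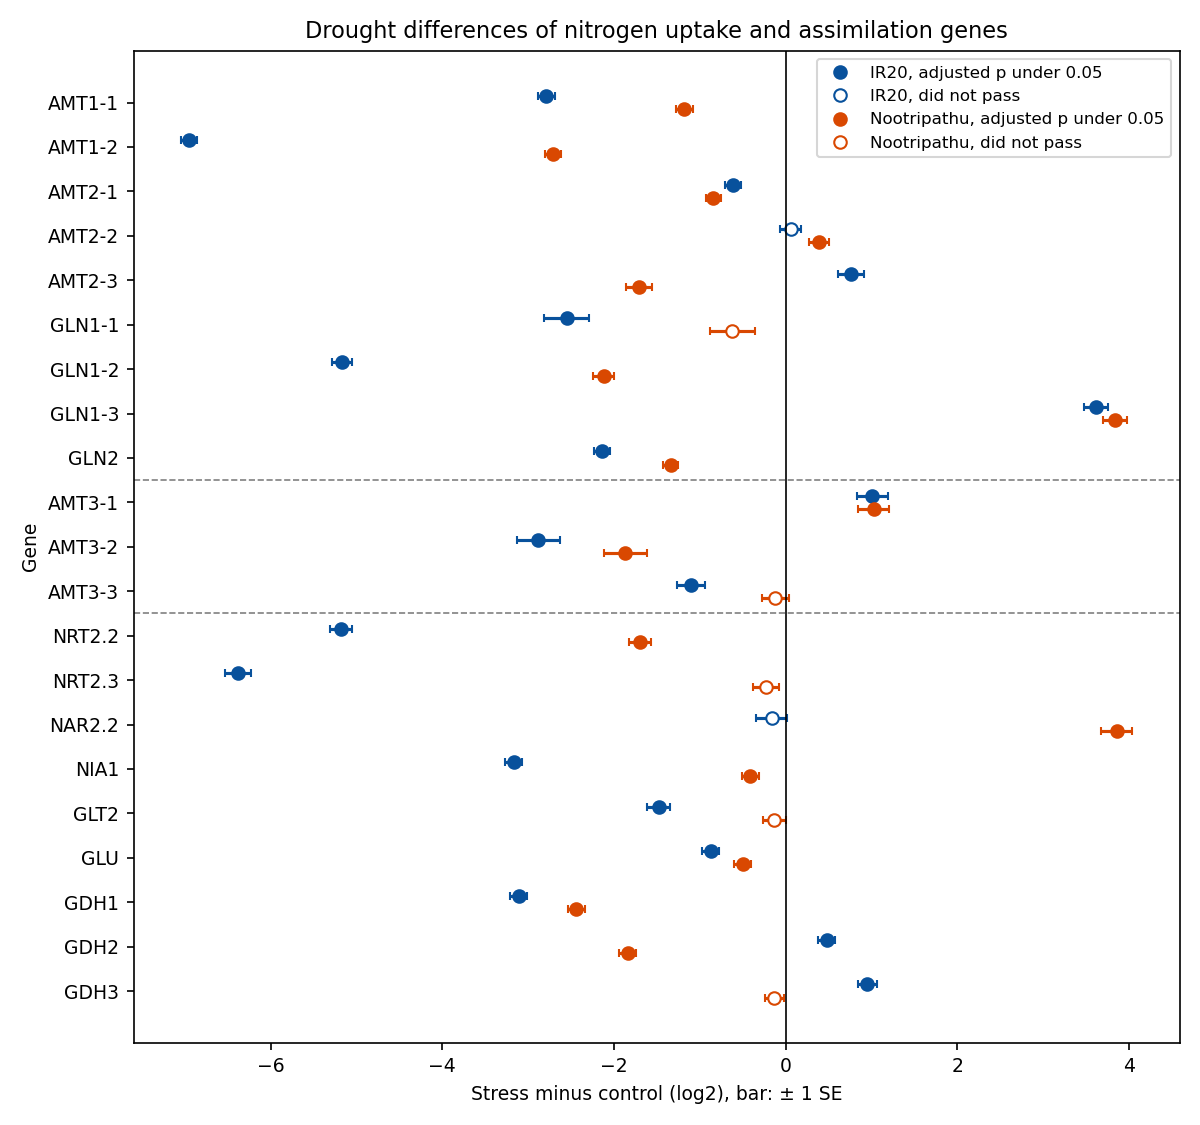
Drought difference, stress minus control on the log2 scale with bars of 1 SE, in IR20 (blue) and Nootripathu (orange); filled dots passed at an adjusted p under 0.05 and open dots did not. Dashed lines separate the AMT1, AMT2 and GLN genes from the AMT3 genes and the nitrate and assimilation genes. GLN1-3, at 3.62 and 3.84, stands out on the right, with NAR2.2 at 3.86 in Nootripathu alone.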

How the data were processed

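Total RNA from roots, 2 ug per sample, was labelled and hybridised to an Affymetrix rice genome array per the labels' protocols. The deposited values are log2 RMA signals made with Affymetrix Expression Console 3.0, per the submitters' processing notes; RMA corrects background and normalises quantiles. With 2 arrays in a group, array number sets how precise a difference can be. No test used the 123 Affymetrix controls.

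A model of 4 group means, with 4 residual and 3.88 prior degrees of freedom, was fitted to the other 57258 probe sets (limma 3.58.1, R 4.3.3), and p-values were adjusted by Benjamini-Hochberg within each of 5 comparisons. The fit was tested on simulated data whose spread was drawn from the fit's own prior. Such a test checks the calculation and not how well the model holds for these arrays. Of 2 against 2 arrays an exact permutation test cannot reach the threshold, so none was made. Probe sets were joined to genes by the platform annotation and named through RefSeq (ASM3414082v1); 22436 had exactly 1 gene.

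The members and lists were chosen with earlier results of these data known. Named were all members, all AMT3 genes, the 3 largest rises and falls that passed per cultivar among nitrate and assimilation genes, and the 5 genes most like the member of widest range in each family. Of 33 symbols sought for nitrate and assimilation genes, 9 genes were measured; GLU1 and AS2 belonged to unrelated genes and were dropped. Alternatives were a replicate block, only the arrays compared, leaving out the dimmest 40% of probe sets or cross-matching ones, median-centring, scaling to 12 spike-in probe sets, a trended robust prior, array weights, other probe sets of a gene and leaving out each array. Gene sequences were not used here.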

Additional observations from a re-analysis of the deposited data

Results flagged for a closer look

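The drought response differed between the cultivars by the interaction test of limma for 6 of the 9 genes (Nootripathu minus IR20 on the log2 scale, n = 2 arrays in each of 4 groups). The value was 4.24 for AMT1-2, whose stressed IR20 signal in the background range limits it, 3.05 for GLN1-2, 1.93 for GLN1-1, 1.61 for AMT1-1 and 0.80 for GLN2, each a smaller fall in Nootripathu, in which GLN1-1 itself did not pass. For AMT2-3, which rose in IR20 and fell in Nootripathu, it was −2.46. Under spike-in scaling AMT1-1 (1.33) and GLN2 (0.52) did not pass, and under a trended robust prior GLN1-1 did not. The second AMT1-1 probe set passed in the opposite direction (−0.91). That of GLN2 passed at 1.12, with a rise of 1.22 in Nootripathu and not a smaller fall. The groups of 2 arrays are too small for a test of single outlying arrays.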

How the results depend on the processing

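Of 721 recomputed values of the 9 genes, 665 kept their direction and their side of the threshold. The 8 calls in IR20 remained 8 in number whichever array was left out; those in Nootripathu ranged from 7 to 9, of the interaction stayed at 6, in watered roots from 4 to 8 and in droughted roots from 5 to 7. The numbers of probe sets passed ranged over these fits from 16233 to 22335 in IR20, 13116 to 21265 in Nootripathu, 6509 to 14153 for the interaction, 6415 to 14494 in watered and 7266 to 14365 in droughted roots. Scaling to the spike-ins left 43988 in Nootripathu, 3228 for the interaction, 4710 in watered roots, with 2 of the 9 genes, and 4386 in droughted roots; fitting only the arrays compared left 7506 there. Directions turned under spike-in scaling for AMT2-2 (−0.54 in IR20, −0.50 in Nootripathu), GDH2 in IR20 (−0.13) and the interaction of GLN1-3 (−0.07); that scaling subtracts 1 amount from every drought difference of a cultivar. They turned without 1 array for AMT2-2 in IR20 (range −0.06 to 0.18), NAR2.2 in IR20 (−0.43 to 0.11) and AMT3-3 in Nootripathu (−0.31 to 0.07). In the fit to all 8 arrays no difference that turned without 1 array had passed. Of those that turned under spike-in scaling, AMT2-2 in Nootripathu (0.39, adjusted p = 0.0330 by limma) and GDH2 in IR20 (0.48, adjusted p = 0.00664) had passed. The second probe set of AMT1-1 gave 0.64 in IR20, −0.91 for the interaction, 0.08 in watered and −0.84 in droughted roots, and that of GLN2 0.10 in IR20, 1.22 in Nootripathu and 1.08 in droughted roots; the cause was not tested. A trended robust prior ended the calls of AMT2-2 in Nootripathu (adjusted p = 0.0636) and of GLN1-1 for the interaction (0.0533) and in droughted roots (0.0893). The replicate numbers share only a number: replicate 1 minus replicate 2 correlated between groups at −0.0145 to 0.207 over 57258 probe sets. With the replicate block 21878 probe sets passed in IR20, 18490 in Nootripathu and 11251 for the interaction, and the 1 call among the 9 genes that changed was GLN1-1 in watered roots (−0.84, adjusted p = 0.0483).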
